A study of Mus musculus with 16 samples.

Results

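The genes described here are 37 members of the heat shock and endoplasmic reticulum (ER) chaperone systems, 16 of the cytosolic heat shock response (the mitochondrial chaperonin pair included) and 21 of the ER unfolded protein response. They were found by matching the transcript accessions of the array's probes to the member symbols. The brightest probe of each gene was used, out of 22911 genes named on the array. All 37 members had a probe well above background on all 16 arrays, so every member was among the 14094 genes tested. Primary podocytes, the epithelial cells that wrap the glomerular capillaries, were grown out of bead-isolated glomeruli of male Jcl:ICR mice and hybridised to one-colour Agilent arrays. The 4 groups of 4 arrays were untreated Tsc2flox/flox and Tsc2Δpodocyte cells at 4 weeks of age, and both genotypes at 5 weeks of age, 1 week after rapamycin. The paper describes rapamycin as injected into the mice, from which the podocytes were then isolated. Treated podocytes, cells and arrays here are those of treated mice. Both genotypes carried the floxed Tsc2 alleles. Only Tsc2Δpodocyte mice also carried Cre, expressed in podocytes, and mice with Cre alone were not on the arrays. The labels do not say whether the 4 arrays of a group came from different mice. A p-value here therefore reflects variation among the samples as deposited, which may be technical.

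Cytosolic chaperones of the HSP70, HSP90 and small heat shock protein families are induced by the transcription factor HSF1 when unfolded proteins accumulate in the cytosol. The ER has chaperones of its own, and the sensors IRE1 (encoded by Ern1), ATF6 and PERK raise their transcription when folding in the ER lumen falls behind, through the factors XBP1, ATF6 and ATF4. TSC2 restrains mTORC1, the kinase complex that drives protein synthesis and that rapamycin inhibits, and the comparisons ask how the chaperone transcripts differ when this restraint is deleted in podocytes.

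The motif search in the promoters of the members is shown first because the search used no expression value. The members were picked as genes of these stress responses, so the search is a description with no test. RefSeq promoter windows (GRCm38.p6, 250 bases before to 50 bases after a start site) were held for 29 of the 37 members, in 34 windows. The ER stress element, CCAAT and CCACG with 9 bases of any kind between them on either strand, lay in the windows of 8 members and in 0.119% of all 32851 windows. All 8 members are ER genes, and Hsp90b1 held it at 2 places. Read in the direction of the motif, with its fixed bases in capitals, the elements were:
Hspa5: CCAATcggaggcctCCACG (chr2:34772025-34772043, plus strand, -65 to -47 from the start site)
Hsp90b1: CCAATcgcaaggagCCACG (chr10:86705638-86705656, minus strand, -212 to -194 from the start site)
Hsp90b1: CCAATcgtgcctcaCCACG (chr10:86705533-86705551, plus strand, -107 to -89 from the start site)
Dnajc3: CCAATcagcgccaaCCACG (chr14:118937827-118937845, plus strand, -105 to -87 from the start site)
Calr: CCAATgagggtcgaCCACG (chr8:84847075-84847093, plus strand, -162 to -144 from the start site)
Canx: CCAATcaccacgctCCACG (chr11:50325800-50325818, minus strand, -145 to -127 from the start site)
Pdia6: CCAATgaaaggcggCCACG (chr12:17266491-17266509, plus strand, -98 to -80 from the start site)
Creld2: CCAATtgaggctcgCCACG (chr15:88819520-88819538, minus strand, -126 to -108 from the start site)
Syvn1: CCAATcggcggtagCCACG (chr19:6046532-6046550, plus strand, -44 to -26 from the start site)

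The shorter form, ATTGG and CCACG with 1 base between them, which shares the CCACG end of the first motif, lay in the windows of Dnajb11 and Herpud1 and in 0.0365% of all windows. The heat shock element of 3 alternating GAA and TTC units with 2 bases between neighbours, lay in the windows of 3 members, Hspd1, Hspe1 and Hsph1, against 0.603% of all windows. Hspd1 and Hspe1 face away from each other on chromosome 1, and both windows hold the same bases. The 2-unit form, GAANNTTC or TTCNNGAA, which every 3-unit match contains, lay in 9 members and in 15.1% of all windows, so it says little by itself. The letters TGACGTGG, an unfolded protein response element, were in 0 of the 34 windows. They were in only 0.676% of all windows, so their absence here says little by itself.

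Hspa1a and Hspa1b encode the stress-inducible HSP70 proteins and are neighbouring copies of 1 gene. Their upstream bases are printed because the pair moved together between the genotypes, a choice made from the expression values. The part of the shared bases in this was not tested. Of the 250 bases before the start sites 247 were identical (98.8%), including the 2-unit heat shock element in capitals. The Hspa5 promoter is printed beside them for contrast, with its ER stress element in capitals.
Hspa1a, chr17:34972157-34972406, minus strand: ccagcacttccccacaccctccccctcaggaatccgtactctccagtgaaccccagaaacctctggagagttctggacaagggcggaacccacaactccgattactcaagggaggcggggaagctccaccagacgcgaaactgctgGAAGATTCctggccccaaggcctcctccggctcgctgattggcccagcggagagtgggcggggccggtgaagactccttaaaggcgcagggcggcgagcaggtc
Hspa1b, chr17:34959239-34959488, minus strand: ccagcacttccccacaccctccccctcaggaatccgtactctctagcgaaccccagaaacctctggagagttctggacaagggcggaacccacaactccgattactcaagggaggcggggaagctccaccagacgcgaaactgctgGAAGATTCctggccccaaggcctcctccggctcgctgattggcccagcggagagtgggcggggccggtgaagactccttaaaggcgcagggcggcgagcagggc
Hspa5, chr2:34771840-34772089, plus strand: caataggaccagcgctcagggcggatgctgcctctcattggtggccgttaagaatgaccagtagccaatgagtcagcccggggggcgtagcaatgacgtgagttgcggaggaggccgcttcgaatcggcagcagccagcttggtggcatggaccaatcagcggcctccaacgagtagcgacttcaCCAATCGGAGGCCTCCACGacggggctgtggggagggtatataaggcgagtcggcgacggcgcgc

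Values are log2 signals relative to the 75th percentile of the array. That percentile was between 349 and 468 intensity units, and the precision rests on the 4 arrays of a group. Control spots left out, 28696 to 32918 spots were well above background. An array holds 62976 spots, 3671 of them controls. Correlations between arrays were 0.978 to 0.992 within groups. The untreated groups shared 1 slide and the treated groups the other, so rapamycin, age and slide cannot be told apart. On both slides the genotypes lay in different rows, so genotype and row cannot be told apart either. Tsc2 (chr17:24595816-24632676) was between 2.95 and 3.71 on the untreated Tsc2flox/flox arrays and between 1.93 and 2.31 on the untreated Tsc2Δpodocyte arrays. Its log2 fold change was -1.35 (adjusted p = 0.000970) without and -0.99 (adjusted p = 0.0124) with rapamycin. Where the Tsc2 probe lies relative to the deleted part was not determined here. Of 12 podocyte markers 11 or 12 were well above background on all 4 arrays of each group, as were 3 of 6 tubule markers. Of the 6, Lrp2 fell by 1.57 without and by 1.84 with rapamycin (adjusted p = 0.00489 and 0.00516). The other 2 tubule markers tested did not pass. Both were above 0 without treatment (highest 0.11) and 1 was with rapamycin (0.40). Slc34a1 and Umod were not well above background on any array.

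Between the untreated genotypes 6 of the 37 members passed an adjusted p of 0.05 in limma. Hspa1a, Hspa1b and Cryab fell, and Hspb8, Sdf2l1 and Sel1l rose in Tsc2Δpodocyte podocytes. The share of members was 16.2%, beside 19.5% of all tested genes (10.3% higher and 9.20% lower). An unadjusted p under 0.05 was reached by 15 members and by 34.4% of all tested genes. By side, 4 of 16 cytosolic heat shock members and 2 of 21 ER members passed. At a fold of at least 1.5, a further condition that 10.0% of all tested genes met, 3 members remained: Hspa1a, Hspa1b and Hspb8. In bulk cultures, fewer cells that make a transcript and less transcript per cell cannot be told apart.

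**Figure D1:**
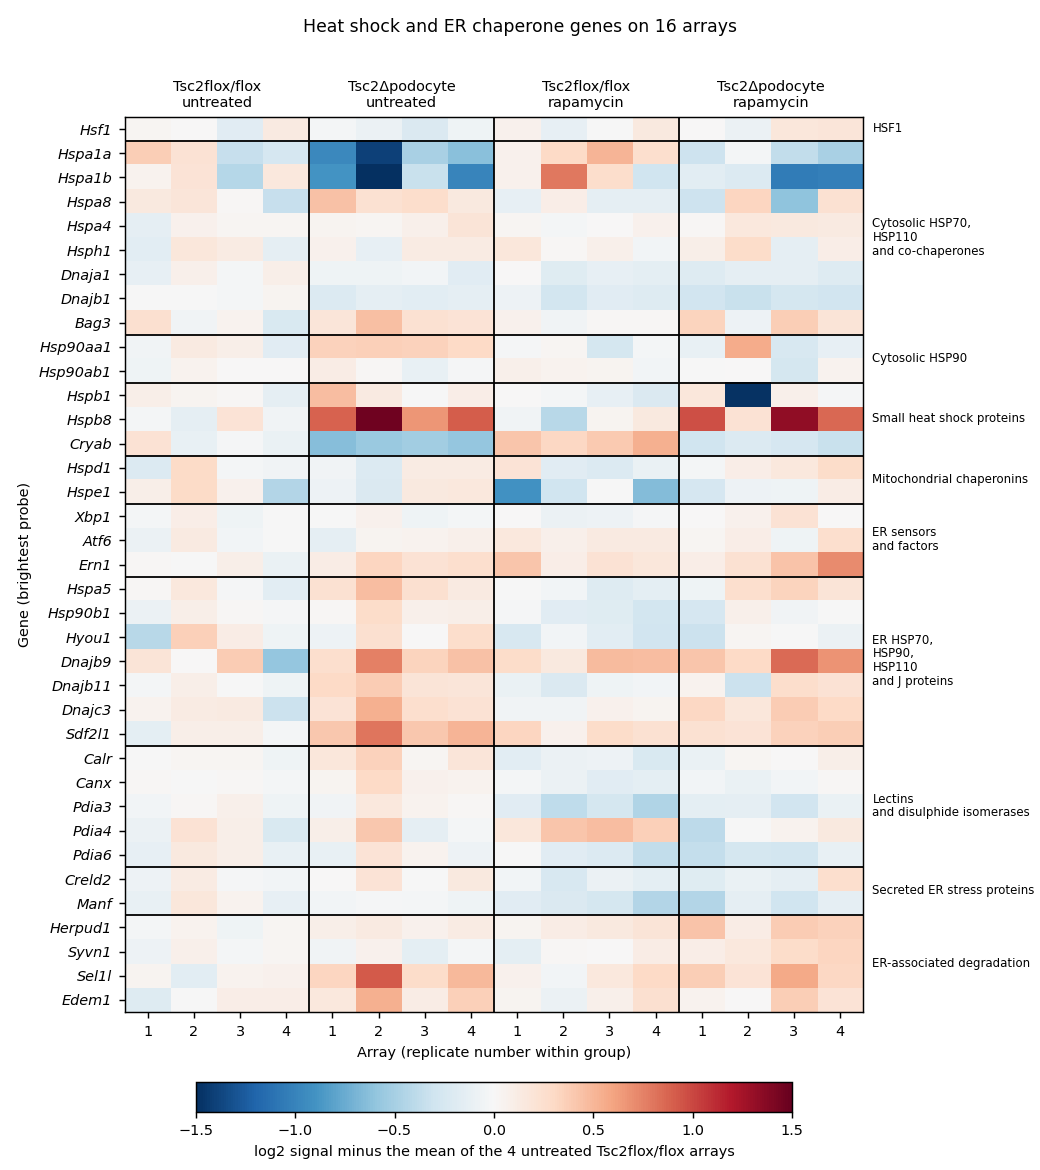
Log2 signal of the 37 members (rows, by role) on the 16 arrays (columns, by group), minus the mean of the 4 untreated Tsc2flox/flox arrays of the same gene, on a colour scale cut at 1.5 in each direction. Hspb8 is red on the Tsc2Δpodocyte arrays, Hspa1a and Hspa1b are blue on most of them, and replicate 2 of the untreated Tsc2Δpodocyte group is the reddest column in the ER rows.

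The inducible HSP70 pair had the largest falls among the 16 cytosolic members without treatment. Hspa1a (chr17:34969359-34972156) measured 1.38, 1.23, 0.66 and 0.76 in untreated Tsc2flox/flox podocytes and 0.05, -0.39, 0.52 and 0.38 in untreated Tsc2Δpodocyte podocytes. The groups did not overlap. The log2 fold change was -0.87 (95% confidence interval -1.30 to -0.44, adjusted p = 0.00945), a 1.83-fold lower level. It passed in 17 of 18 alternative fits, but not by the methods' t-test (adjusted p = 0.0904). Under rapamycin Hspa1a measured 1.07, 1.31, 1.52 and 1.26 in control and 0.70, 0.98, 0.65 and 0.52 in Tsc2Δpodocyte podocytes, again without overlap, and the log2 fold change of -0.58 did not pass (adjusted p = 0.0822), though it did in a fit of the 8 treated arrays alone (adjusted p = 0.0456).

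Hspa1b (chr17:34956429-34959238) measured 0.58, 0.73, 0.11 and 0.69 in untreated control and -0.37, -0.96, 0.20 and -0.46 in untreated Tsc2Δpodocyte podocytes. One knockout array, replicate 3, lay above the lowest control. The log2 fold change was -0.93 (95% confidence interval -1.54 to -0.31, adjusted p = 0.0387). It passed in 9 of 18 alternative fits, with an adjusted p of 0.0193 to 0.118, and it did not pass without replicate 1, 2 or 4 of either untreated group. Without replicate 2 of the Tsc2Δpodocyte group it was -0.74 (adjusted p = 0.118). With rapamycin the difference was -0.81 (adjusted p = 0.0860). Whether a probe of either gene takes up transcript of the other was not tested, since neither transcript nor probe sequences were compared. The values of the pair may therefore not be independent.

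The other HSP70, HSP110 and J-domain genes differed less. Dnajb1, the HSP40 that delivers clients to inducible HSP70, measured 4.62, 4.61, 4.59 and 4.66 in untreated control and 4.42, 4.48, 4.47 and 4.48 in untreated Tsc2Δpodocyte podocytes. Its groups did not overlap, and the log2 fold change of -0.16 did not pass (adjusted p = 0.0928) but did in 3 of 18 alternative fits, quantile normalization among them (-0.21, adjusted p = 0.0254). The constitutive HSP70 Hspa8, the HSP110 nucleotide exchange factors Hspa4 and Hsph1, and the J protein Dnaja1 lay between -0.09 and 0.27 without treatment and between -0.05 and 0.10 with rapamycin. None of the 4 passed. Bag3, the co-chaperone that links HSP70 and HSPB8 to selective autophagy, differed by 0.27 (95% confidence interval 0.02 to 0.51, adjusted p = 0.118). Hsf1, the transcription factor of the response, differed by -0.10 without treatment (95% confidence interval -0.30 to 0.10) and by 0.05 with rapamycin.

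Of the cytosolic HSP90 pair, the inducible Hsp90aa1 was between 5.52 and 5.83 in untreated control and between 5.99 and 6.05 in untreated Tsc2Δpodocyte podocytes. These groups did not overlap, yet the difference of 0.34 did not pass (adjusted p = 0.120). Hsp90aa1 passed in a fit of the 8 untreated arrays alone (adjusted p = 0.0444) and by the methods' t-test (adjusted p = 0.0394). The constitutive Hsp90ab1 differed by 0.00 (95% confidence interval -0.17 to 0.17).

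Of the 3 small heat shock proteins, which hold unfolding clients in solution without ATP, Hspb8 rose, Cryab fell and Hspb1 did not pass, in both treatments. Hspb8 (chr5:116408491-116422864) measured 3.60, 3.49, 3.84 and 3.58 in untreated control and 4.52, 5.08, 4.29 and 4.54 in untreated Tsc2Δpodocyte podocytes. With rapamycin it measured 3.57, 3.22, 3.67 and 3.77 in control and 4.59, 3.84, 4.96 and 4.49 in Tsc2Δpodocyte podocytes. The knockout arrays were above the control arrays within each treatment. Hspb8 rose 1.97-fold without treatment (log2 0.98, 95% confidence interval 0.52 to 1.44, adjusted p = 0.00705) and 1.89-fold with rapamycin (log2 0.92, 95% confidence interval 0.46 to 1.38, adjusted p = 0.0170). The second of these passed in 14 of 18 alternative fits. It did not pass without replicate 1 of the treated Tsc2Δpodocyte group (0.88, adjusted p = 0.0501), and the methods' t-test gave an adjusted p of 0.110.

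Cryab (chr9:50745951-50756636), the alpha B-crystallin gene, measured 6.40, 6.07, 6.16 and 6.08 in untreated control and 5.54, 5.62, 5.65 and 5.60 in untreated Tsc2Δpodocyte podocytes. With rapamycin it measured 6.60, 6.48, 6.57 and 6.71 in control and 5.88, 5.97, 5.93 and 5.84 in Tsc2Δpodocyte podocytes. All treated arrays of a genotype were above its untreated arrays, and within each treatment all knockout arrays were below control. Cryab fell by 0.58 on the log2 scale without treatment (95% confidence interval -0.75 to -0.40, adjusted p = 0.000484), 1.49-fold and so just short of the 1.5-fold line. With rapamycin it fell by 0.68 (adjusted p = 0.000692), 1.61-fold. Both differences passed in 18 of 18 alternative fits. Hspb1, the HSP27 gene, did not differ beyond its spread (0.17, adjusted p = 0.697, and with rapamycin -0.22, adjusted p = 0.657), and under rapamycin its knockout values were 7.91, 6.27, 7.82 and 7.73, with replicate 2 far below the others.

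The mitochondrial chaperonins Hspd1 (HSP60) and Hspe1 (HSP10), which share the promoter described above, both differed by less than 0.01 in size between the untreated genotypes. With rapamycin Hspe1 was 0.40 higher in Tsc2Δpodocyte podocytes (adjusted p = 0.194) and Hspd1 0.19 higher (adjusted p = 0.354), and neither passed.

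**Figure D2:**
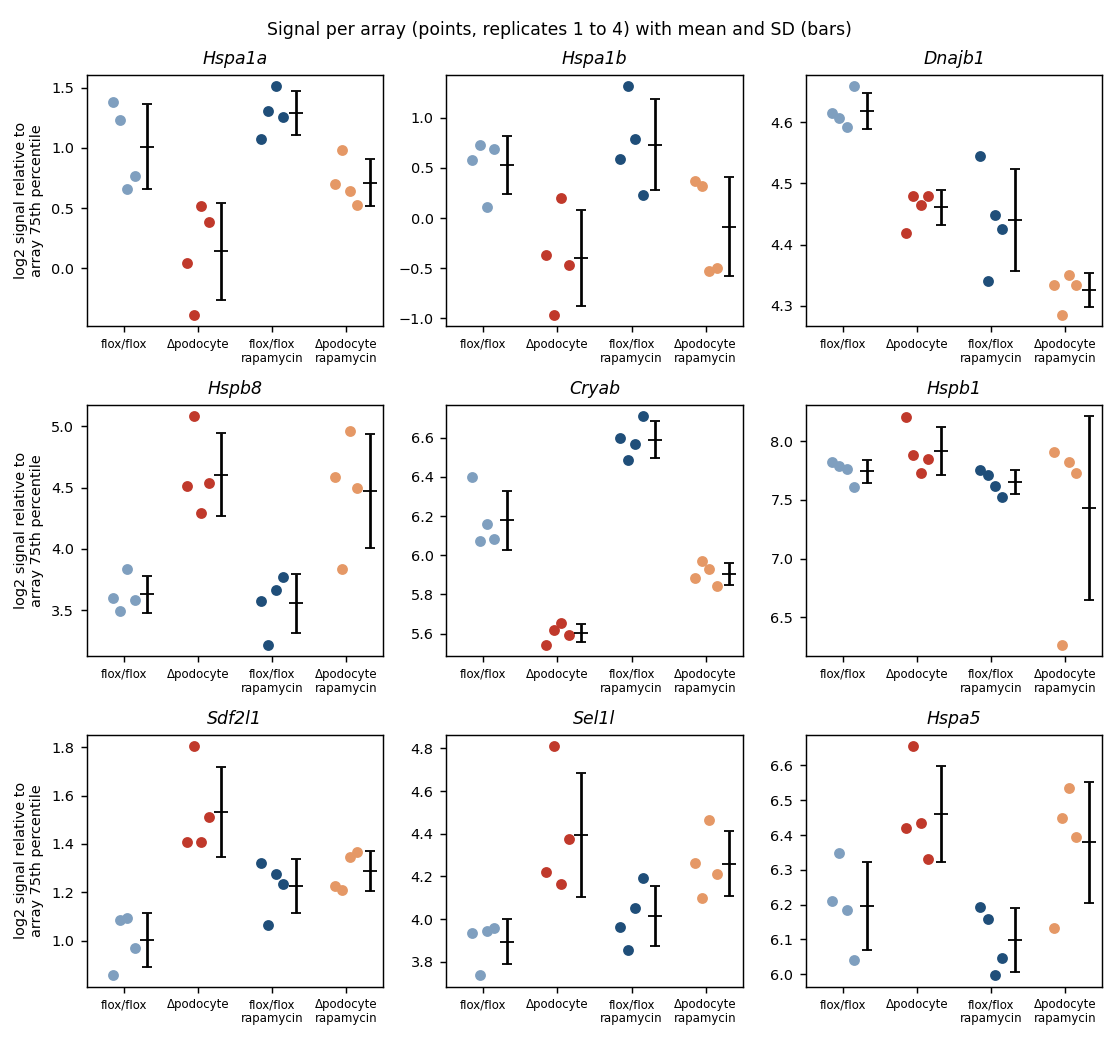
Log2 signal relative to the array's 75th percentile (vertical axes, a scale of its own for each gene) for 9 members in the 4 groups, with each point 1 array and bars the mean and SD of 4 arrays. The Cryab and Hspb8 points separate by genotype within each treatment, Sdf2l1 separates only among the untreated arrays, and 1 treated Hspb1 array lies at 6.27.

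Of the 3 ER sensors and factors, 0 passed between the genotypes in limma in either treatment, 0 by the methods' t-test and 0 at an unadjusted p under 0.05. Xbp1 differed by -0.01 between the untreated genotypes (95% confidence interval -0.16 to 0.14) and Atf6 by 0.01 (95% confidence interval -0.17 to 0.18). The Xbp1 value is the sum of its transcripts and cannot show the splicing by which IRE1 activates it. Ern1 was between -2.14 and -1.95 in untreated control and between -1.93 and -1.71 in untreated Tsc2Δpodocyte podocytes, without overlap, and its difference of 0.23 did not pass (adjusted p = 0.195).

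All 7 lumenal HSP70, HSP90, HSP110 and J-protein genes were higher on average in Tsc2Δpodocyte podocytes, in both treatments, and 1 of them passed. Sdf2l1 (chr16:17130138-17132383), which keeps the ER HSP70 cycle with J proteins running, measured 0.86, 1.08, 1.09 and 0.97 in untreated control and 1.41, 1.80, 1.41 and 1.51 in untreated Tsc2Δpodocyte podocytes. It rose by 0.53 (95% confidence interval 0.32 to 0.74, adjusted p = 0.00272), and passed in 18 of 18 alternative fits. With rapamycin the groups overlapped, at 1.32, 1.07, 1.28 and 1.24 in control and 1.23, 1.21, 1.35 and 1.37 in Tsc2Δpodocyte podocytes, and the difference was 0.06 (95% confidence interval -0.15 to 0.28). The test of whether these 2 differences differ gave -0.47 (95% confidence interval -0.77 to -0.17), which did not pass over all probes (adjusted p = 0.617).

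Hspa5, the gene of BiP, the master chaperone of the ER, measured 6.21, 6.35, 6.18 and 6.04 in untreated control and 6.42, 6.65, 6.44 and 6.33 in untreated Tsc2Δpodocyte podocytes. The highest control lay just above the lowest knockout array. Its difference was 0.26 (adjusted p = 0.0895), and 0.28 with rapamycin (adjusted p = 0.0976). With normexp background correction the treated difference passed (0.46, adjusted p = 0.00598). Dnajc3 (P58IPK) did not overlap in either treatment and differed by 0.30 (adjusted p = 0.0668) and 0.29 (adjusted p = 0.0975). Dnajb11 (ERdj3) differed by 0.26 and Dnajb9 (ERdj4) by 0.44 without treatment (adjusted p = 0.111 and 0.116), while Hsp90b1 (GRP94) and Hyou1 (GRP170) each differed by 0.11, with intervals that reach below 0.

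The lectin chaperones Calr and Canx, which fold glycoproteins, were 0.19 (adjusted p = 0.111) and 0.11 (adjusted p = 0.279) higher in untreated Tsc2Δpodocyte podocytes. The disulphide isomerases Pdia3, Pdia4 and Pdia6 differed by 0.04, 0.08 and 0.02. With rapamycin Pdia4 was between 0.61 and 0.90 in control and between 0.05 and 0.59 in Tsc2Δpodocyte podocytes. These groups did not overlap, and the difference of -0.40 did not pass (adjusted p = 0.0898). The secreted ER stress proteins Creld2 and Manf differed by 0.09 and -0.04 without treatment.

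Of the ER-associated degradation genes, which pull misfolded proteins out of the ER for the proteasome, Sel1l passed. Sel1l (chr12:91806043-91849157), the scaffold of the HRD1 ubiquitin ligase, measured 3.94, 3.74, 3.94 and 3.96 in untreated control and 4.22, 4.81, 4.16 and 4.38 in untreated Tsc2Δpodocyte podocytes, and rose by 0.50 (95% confidence interval 0.22 to 0.78, adjusted p = 0.0188). Without replicate 2 of the untreated Tsc2flox/flox group, the low array, it was 0.45 (adjusted p = 0.0574), and it passed in 14 of 18 alternative fits. With rapamycin it was 0.24 higher (adjusted p = 0.263). The ligase itself, Syvn1, differed by -0.04 without treatment and by 0.22 with rapamycin (adjusted p = 0.0938). Edem1, a mannosidase-like factor that hands over glycoproteins, differed by 0.29 (adjusted p = 0.0983) and Herpud1 by 0.10 (adjusted p = 0.379), both without overlap in untreated cells.

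**Figure D3:**
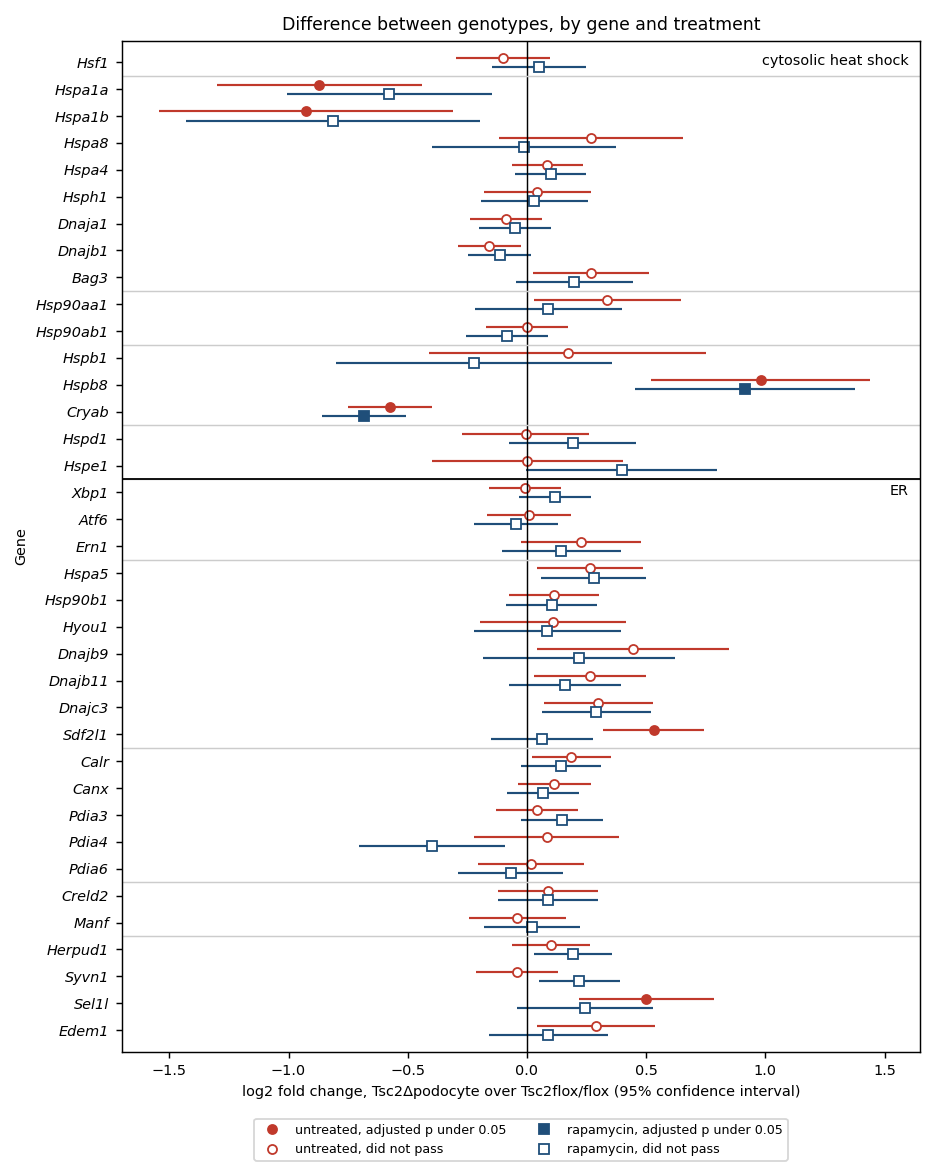
Log2 fold change of Tsc2Δpodocyte over Tsc2flox/flox podocytes (horizontal axis) for each member, without treatment (circles) and with rapamycin (squares), with 95% confidence intervals, and filled where the adjusted p was under 0.05. Most ER members lie a little to the right of 0 with intervals that touch it, and the filled points are 6 without treatment and 2 with rapamycin.

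Several genes had more than 1 probe, and for 4 members a dimmer probe passed where the brightest did not. Edem1 passed on its other probe in both treatments (0.64, adjusted p = 0.0169, and 0.67, adjusted p = 0.0212). The other Sel1l probe passed in both treatments too (0.56, adjusted p = 0.0296, and 0.71, adjusted p = 0.0154). Dnajb9 passed on its dimmer probe without treatment (0.44, adjusted p = 0.0469), and Hsph1 with rapamycin (0.41, adjusted p = 0.0263), where its brightest probe gave 0.03. Counting a gene when any of its probes passed, a rule added after the values were seen, 8 members changed without and 5 with rapamycin. The same rule takes 22.1% and 13.5% of all tested genes. Treated against untreated it takes 0 members, beside 0.206% of all tested genes in control and 4.30% in Tsc2Δpodocyte podocytes.

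Set side by side, the ER members leaned upward and the cytosolic members did not. The median log2 fold change between the untreated genotypes was 0.11 over the 21 ER members, 0.00 over the 16 cytosolic members and -0.01 over all tested genes. The cytosolic median was -0.09 by quantile normalization, and the ER median lay between 0.08 and 0.14 over the scalings tried. Of the ER members 18 were above 0, and of the cytosolic members 9, beside 6859 of the 14094 tested genes. In 8 of 21 ER members all 4 untreated knockout arrays were above all 4 control arrays, which was so in 13.5% of all tested genes, and in 0 of 21 they were all below. Of the 16 cytosolic members 2 were higher and 3 lower without overlap, where another 13.5% of all tested genes was lower. With rapamycin the medians were 0.12 and 0.01, beside 0.01 over all tested genes. Above 0 were 18 of 21 ER and 8 of 16 cytosolic members, beside 7198 of the 14094 tested genes. Only 1 ER member was higher without overlap (10.7% of all tested genes) and 1 lower (7.49%).

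A single untreated array carries much of the difference in medians between the untreated genotypes. The treated medians do not include it. Replicate 2 of the untreated Tsc2Δpodocyte group was the highest of the 8 untreated arrays in 16 of the 21 ER members, and the lowest in Hspa1a and Hspa1b. In what share of all tested genes it was the highest was not counted, so the 16 cannot be read as particular to ER genes. Without this array the ER median was 0.07, the cytosolic median was also 0.07 and the gap between them was gone. Above 0 were then 15 ER and 9 cytosolic members, beside 6709 of the 14094 tested genes. Still, 8 ER members were higher without overlap (14.9% of all tested genes) and 3 cytosolic members lower (16.9%). The counts of members that passed were 2 ER and 3 cytosolic (13.8% of all tested genes). This array had a summed podocyte marker signal of 221, where the other 3 arrays of its group had 99.2 to 126 and the untreated control arrays 76.8 to 118, in multiples of the array's 75th percentile. The part of this in the ER values was not tested.

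**Figure D4:**
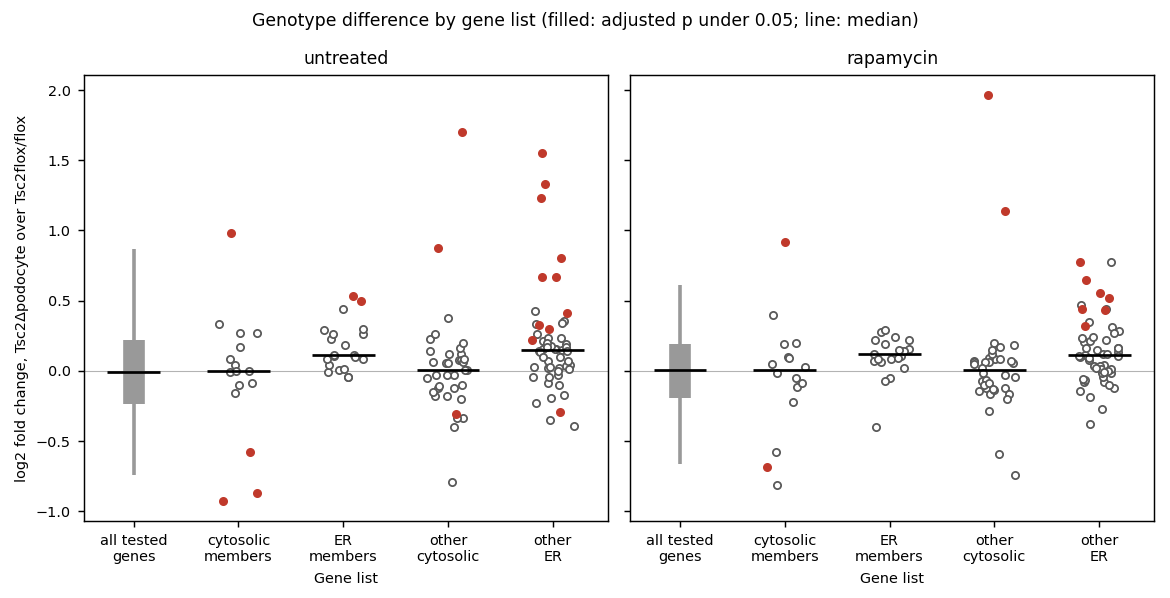
Log2 fold change of Tsc2Δpodocyte over Tsc2flox/flox podocytes (vertical axis) without treatment (left) and with rapamycin (right), for each gene of 4 lists, filled where the adjusted p was under 0.05, with the median as a line. The grey box and line span the 25th to 75th and the 5th to 95th percentile of all 14094 tested genes, and the ER lists have medians of 0.11 to 0.15 where the cytosolic lists lie at 0.00 to 0.01.

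With rapamycin 2 of 37 members passed between the genotypes, Hspb8 and Cryab, a share of 5.41% beside 11.2% of all tested genes (6.20% higher and 4.97% lower). Both also passed the 1.5-fold line, as 5.58% of all tested genes did, and 9 members reached an unadjusted p under 0.05, beside 27.3% of all tested genes. No member passed the test of whether the genotype difference itself depended on rapamycin: 0 of 37 in limma, where 0.00% of all tested genes passed on their brightest probe, with 3 members at an unadjusted p under 0.05 (7.39% of all tested genes). The methods' t-test gives no such comparison. Those 3 were Sdf2l1, Pdia4 and Syvn1, with adjusted p of 0.617, 0.664 and 0.664. A difference that passed without rapamycin and not with it, such as that of Hspa1a or Sel1l, is therefore not shown to have changed.

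Treated against untreated podocytes of 1 genotype, 0 of 37 members passed in limma in either genotype and 0 by the methods' t-test, beside 0.163% of all tested genes in Tsc2flox/flox and 3.51% in Tsc2Δpodocyte podocytes. At an unadjusted p under 0.05 there were 7 and 12 members, beside 15.9% and 24.2% of all tested genes. The treated groups are the same arrays as in the comparison of genotypes with rapamycin. Cryab came nearest, 0.41 higher after rapamycin in control (adjusted p = 0.0601) and 0.30 higher in Tsc2Δpodocyte podocytes (adjusted p = 0.0575), with no overlap in either. It passed in Tsc2flox/flox cells without replicate 1 of the untreated group (0.48, adjusted p = 0.0438). Dnajb1, Canx, Pdia3 and Manf were lower without overlap in both genotypes, among 5 lower members in control (5.21% of all tested genes) and 6 in Tsc2Δpodocyte cells (6.40%). Higher without overlap were Cryab and Ern1 in control (5.53%) and Hspa1a, Cryab and Syvn1 in Tsc2Δpodocyte podocytes (8.09%). The 9 endothelial markers had a median difference of -2.17 in control and -1.94 in Tsc2Δpodocyte podocytes between treated and untreated arrays, and their summed signal was 6.49 to 14.7 on the treated and 9.25 to 112 on the untreated arrays. Their part in these differences was not tested.

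Other chaperone genes were read from lists written from textbook knowledge. Of 36 further cytosolic genes tested, 2 rose and 1 fell between the untreated genotypes, a share of 8.33% beside 19.5% of all tested genes. Both that rose are small heat shock proteins: Hspb6 (HSP20), which was between 1.19 and 1.43 in control and between 1.95 and 2.50 in Tsc2Δpodocyte podocytes (0.88, adjusted p = 0.00100), and Hspb7 (1.70, adjusted p = 0.0297). The gene that fell was Dnajc7, an HSP90 co-chaperone (-0.31, adjusted p = 0.0111). Hspb6 and Hspb7 also rose with rapamycin (1.14, adjusted p = 0.000765, and 1.97, adjusted p = 0.0236). Hspb7 and Dnajc7 are named after their values were seen. Lonp1, the mitochondrial matrix protease, was the 1 of 5 further mitochondrial genes that passed without treatment (0.66, adjusted p = 0.000919).

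Of 54 further ER genes 10 rose and 1, the site-2 protease gene Mbtps2 (-0.29, adjusted p = 0.0447, also named after its value was seen), fell between the untreated genotypes, beside 10.3% higher and 9.20% lower of all tested genes, and their median was 0.15. Ero1a, the oxidase that recharges disulphide isomerases, was between 2.89 and 3.02 in control and between 3.88 and 5.08 in Tsc2Δpodocyte podocytes (1.33, adjusted p = 0.00108). Ddit3 (CHOP) and Trib3, genes of the ATF4 arm of the stress response that also answer to amino acid shortage, rose by 1.55 (adjusted p = 0.00645) and 1.23 (adjusted p = 0.00333). Sil1, a nucleotide exchange factor of BiP, rose by 0.67 (adjusted p = 0.00131). With rapamycin 7 of the 54 rose and 0 fell, beside 6.20% and 4.97% of all tested genes. Ero1a (0.78, adjusted p = 0.0356) and Sil1 (0.44, adjusted p = 0.0245) were among them, and Ddit3 (0.78, adjusted p = 0.156) and Trib3 (0.47, adjusted p = 0.225) did not pass.

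Markers listed for other glomerular cells also differed between the untreated genotypes. The paper reports that nearly all explant cells were positive for WT1, which marks podocytes. Which cells made the transcripts of these markers was not tested. Of 8 mesangial and smooth muscle markers 3 rose, Des by 1.76, Itga8 by 1.42 and Cnn1 by 0.96, and all 8 were above 0. Their summed signal was 621 to 769 in control and 698 to 961 in Tsc2Δpodocyte podocytes. Of 6 parietal epithelial markers Pax8 fell by 1.47 and Cdh6 by 1.64, and the summed signal was 70.1 to 163 in control and 32.7 to 120 in Tsc2Δpodocyte podocytes. Of 9 macrophage markers Cd68 rose by 1.03, of 12 podocyte markers Plce1 rose by 1.80, and of 9 endothelial markers 0 passed. The podocyte markers went both ways, 7 above 0 and 5 below, from -1.07 to 1.80. Hspb8, Hspb6 and Hspb7, which rose, and Cryab, which fell, are genes that muscle cells express strongly. The part of the cells with these markers in the differences of those genes was not tested.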

How the data were processed

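RNA of 16 podocyte cultures was labelled with Cy3 and hybridised to 1-colour Agilent arrays. The authors deposited scanner files with a linear intensity per spot, corrected for background, and flags for detection and outliers. The submitters' processing notes name Agilent Feature Extraction 10.7.3.1. They also deposited a table of log2 values, which the values show to be shifted by each array's 75th percentile and centred per probe (r of at least 0.9996 with the values used here). Its exact steps are not given in the sources used here.

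Each intensity was divided by the 75th percentile of its array before taking log2. Control spots and outlier spots were left out, and repeated spots of a probe were averaged. A probe was tested if some group had it well above background on each of its 4 arrays, which left 27579 probes. Accessions were matched to RefSeq symbols, and the brightest probe stood for a gene. Group means were fitted over 16 arrays in limma 3.58.1 (R 4.3.3), with Benjamini-Hochberg adjustment over all probes within a comparison. Rose, fell and passed mean an adjusted p under 0.05, and the 1.5-fold line is a further condition. The fit was also run on simulated arrays with independent noise for each probe. Such arrays lack shifts shared by many probes, so the run says nothing about error rates under such shifts.

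The members, their roles, the further lists and the markers were chosen with earlier results of these data known. The text names all members, Tsc2 and, of the further genes, up to 6 with the smallest p in each direction among those past both thresholds between the untreated genotypes. Alternatives were other background corrections, normalizations, filters, priors and tests, the deposited log2 values, the mean over a gene's probes, a replicate block and leaving out each array. Motifs were searched on both strands of RefSeq promoter windows. Neither probe positions nor protein sequences were used here.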

Additional observations from a re-analysis of the deposited data

Results flagged for a closer look

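In 10 of 148 sets of 4 arrays (37 members in 4 groups) 1 array stood apart from the other 3 by a gap past the Dixon limit, given here as its share of the range of the 4 arrays. Chance flags about 1 in 20 sets. Replicate 2 of the untreated Tsc2Δpodocyte group was the high array for Bag3 (0.851 of the range), Dnajc3 (0.884) and Canx (0.899), and replicate 4 was the low array for Hsp90aa1 (0.935). In treated Tsc2Δpodocyte podocytes replicate 2 was low for Hspb1 (0.890) and high for Hsp90aa1 (0.840), replicate 1 was low for Hspa4 (0.880) and replicate 3 low for Hsp90ab1 (0.836). Replicate 2 of the treated Tsc2flox/flox group was high for Hspa8 (0.930), and replicate 2 of the untreated group was low for Sel1l (0.900). The Hspb1 gap was wide on the log2 scale, 6.27 against 7.73 to 7.91. The other probes of these arrays were not compared for spot defects.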

How the results depend on the processing

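No difference of a member that passed changed direction under any alternative. Between the untreated genotypes the number of changed ER members moved from 2 to 4 with normexp background correction, with the mean of a gene's probes and with any probe of a gene, and to 1 without a filter on dim probes and with only the 8 arrays compared. The cytosolic count stayed at 3 or 4 when 1 array was left out, and the methods' t-test also gave 4, with Dnajb1 and Hsp90aa1 in place of Hspa1a and Hspa1b. The ER count was 1 to 2 when 1 array was left out, with the lower value without replicate 2 of the Tsc2flox/flox group. The ER median minus the cytosolic median was 0.11, between 0.07 and 0.19 over the other settings, and -0.00165 to 0.15 when 1 array was left out, lowest without replicate 2 of the Tsc2Δpodocyte group.

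With rapamycin the cytosolic count moved from 2 to 1 without a filter, by the methods' t-test and at the lowest of the fits that left out 1 array (1 to 2, without replicate 1 of the Tsc2Δpodocyte group). The ER count moved from 0 to 2 with normexp (Hspa5 and Hsp90b1) and any probe, to 1 with the mean of probes, and was 0 to 2 when 1 array was left out, with Dnajb11 and Herpud1 without replicate 2 of the Tsc2Δpodocyte group. Treated against untreated, the cytosolic count of 0 became 1, Cryab, in Tsc2flox/flox cells with quantile normalization and with a trended and robust prior, and in Tsc2Δpodocyte cells with quantile normalization, normexp, probes above background on all 16 arrays and the trended prior. The ER count became 1 with normexp in Tsc2flox/flox cells (Pdia4), and in Tsc2Δpodocyte cells 1 with quantile normalization (Syvn1) and 2 with normexp (Atf6 and Pdia3). Leaving out 1 array gave cytosolic counts of 0 to 1 in both genotypes, with Hsp90aa1 called without replicate 2 of the treated Tsc2Δpodocyte group, and ER counts of 0. The causes of these moves were not tested.

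The replicate numbers did not pair the samples: same-numbered arrays of different groups had correlations of -0.33 to 0.46 in their deviations, and other pairs -0.47 to 0.44. With the replicate number as a block the untreated counts were 3 cytosolic members, since Hspa1b did not pass (-0.93, adjusted p = 0.0583), and 2 ER members, and with rapamycin 2 and 0.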

Other observations

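The mean log2 signal of the ER members minus that of the cytosolic members, taken per array, was -1.71 to -1.55 on the untreated Tsc2flox/flox arrays, and -1.54 to -1.45 on 3 untreated Tsc2Δpodocyte arrays with the remaining one, replicate 2, at -1.19. With rapamycin it was -1.68 to -1.60 in control and -1.61 to -1.40 in Tsc2Δpodocyte podocytes. Since the probes differ in brightness, the values are read only between arrays.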
